A study of Mus musculus with 8 samples.

Results

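The genes described here had a much higher level in WT embryoid bodies (EBs) than in the WT mouse embryonic stem cells (mESCs) they formed from, and a similar level in CTCF-K20R EBs. They were chosen from the mean of the 2 libraries of each group by 3 conditions. The WT EB mean had to be at least 200 normalized counts, the WT EB mean plus 1 had to be at least 8 times the WT mESC mean plus 1, and the CTCF-K20R EB mean plus 1 had to lie between 0.7 and 1.4 times the WT EB mean plus 1. Of the 18094 genes in the table, 428 met the first pair of conditions and are called WT-induced, and 71 of these met the third and are the members. The levels in WT and in CTCF-K20R EBs therefore chose the members and are given as a description. The day 0 CTCF-K20R libraries took no part in the choice.

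RNA-seq was performed on E14Tg2A mESCs on day 0 and on EBs on day 4 of differentiation, wild type (WT) or CTCF-K20R in genotype, with 2 libraries for each of the 4 groups. E14Tg2A is an established mouse embryonic stem cell line. In CTCF-K20R cells a lysine of CTCF, a DNA-binding protein that shapes chromatin loops and contacts between enhancers and promoters, was replaced with arginine by CRISPR/Cas9. The mESCs of both genotypes were grown in serum medium with LIF and the inhibitors CHIR99021 (of the kinase GSK3) and PD0325901 (of the ERK-activating kinase MEK) on inactivated mouse embryo fibroblasts. The EBs formed in hanging drops, also in serum medium but without LIF. Day, LIF, inhibitors, hanging-drop culture and contact with fibroblasts thus changed together between mESCs and EBs and cannot be told apart. Whether the CTCF-K20R libraries came from 1 clone or several is not given in the sources used here. Counts per gene cannot show a point mutation, so the genotype rests on the labels.

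When naive mESCs leave LIF and the inhibitors, they first pass through a state like the epiblast after implantation, in which naive genes fall and genes such as Fgf5 come on. WNT, NODAL and BMP signals then lead part of the cells into the primitive streak and mesoderm, while other cells keep an epithelial or neural course. The question put to the data was which genes of the WT programme were still reached in CTCF-K20R EBs.

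Per library the normalized counts summed to 19412659 to 21311513, and 3 reads, taken as the limit of detection, corresponded to 2.43 to 3.44 normalized counts. The WT libraries of each day differed by less than the sampling noise (mean squared difference 0.313 times the noise on day 0 and 0.278 times on day 4, against 4.00 and 4.37 times for CTCF-K20R), so each WT pair was counted as 1 sample and its spread is no biological error. The 6 mESC markers (Pou5f1, Nanog, Sox2, Zfp42, Esrrb and Klf4) summed to between 90125 and 91438 normalized counts in the mESC libraries. In EBs this sum was 15404 and 15511 in WT and 31927 and 31200 in CTCF-K20R, and 4 of the 6 markers were called higher in CTCF-K20R EBs and 1 lower (limma, as below, where 6.89% of all genes tested were called higher on day 4 and 8.65% lower). The 16 measured fibroblast markers summed to 56168 and 55993 in WT EBs and to 6338 and 7097 in CTCF-K20R EBs, mostly through Fn1 and Vim, and of the 13 tested 2 were called higher and 6 lower. In mESCs the same markers summed to 55420 and 55993 in WT and to 50330 and 49915 in CTCF-K20R. Fn1 had means there of 47024 in WT and 44732 in CTCF-K20R, and Vim of 7512 and 4373. Postn, Dcn and Twist2 of this list were at 0 in all mESC libraries. The means in WT and CTCF-K20R mESCs were 16.7 and 33.3 normalized counts for Col1a1, 134 and 361 for Pdgfrb and 462 and 104 for Thy1. The part of these cell types in the values of the members was not tested. In bulk RNA, fewer cells that express a gene and less RNA of it per cell cannot be told apart.

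Among the 428 WT-induced genes, 332 had a day 4 ratio of CTCF-K20R to WT under 0.7, 71 were members and 25 had a ratio above 1.4. All 71 members are protein-coding genes. Their median change from day 0 to day 4 was 13.2-fold in WT and 14.5-fold in CTCF-K20R, on the scale of normalized counts plus 1. Since each WT day counts as 1 sample, these changes over time are given without a test. For the 332 genes below the band the medians were 27.7-fold in WT and 5.10-fold in CTCF-K20R, and for the 25 genes above it 12.9-fold and 35.0-fold. Summed over the members, WT mESCs held 5205 normalized counts and CTCF-K20R mESCs 6327, and the EBs held 84408 and 79406. The day 4 ratio lay below 1 for 40 members and above 1 for 31, with a median of 0.934, and the WT mean fell between the CTCF-K20R EB libraries for 7 of them.

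**Figure D1:**
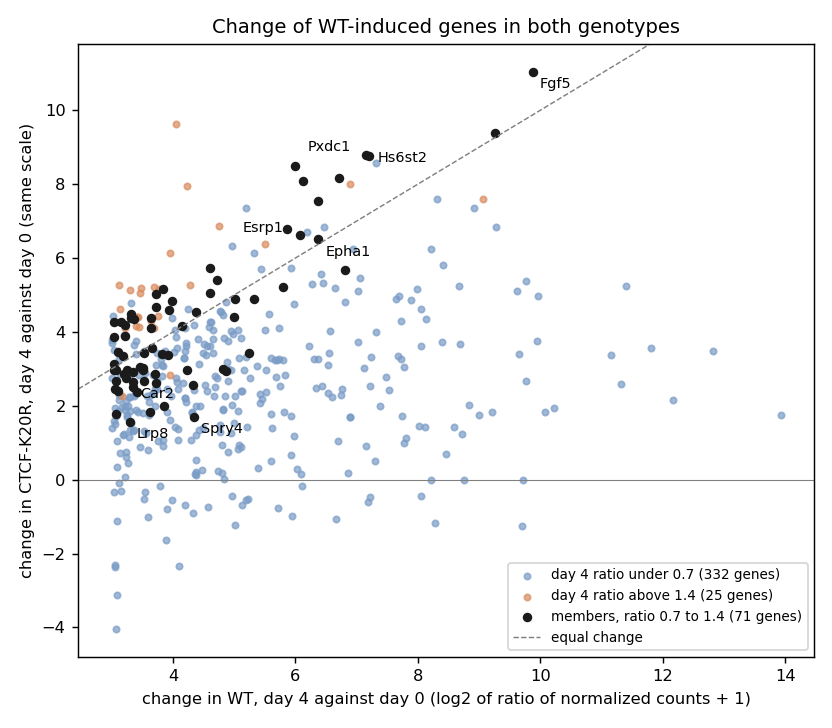
Change from day 0 to day 4 of the 428 WT-induced genes, with the log2 change in WT on the horizontal axis and in CTCF-K20R on the vertical axis, computed from group means of normalized counts plus 1. The 71 members (black) lie on both sides of the dashed line of equal change, 34 of them on or above it, and in 47 cases changed at least 8-fold in CTCF-K20R, whereas most of the 332 genes with a ratio under 0.7 (blue) lie below the line.

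The rule fixed the end level in CTCF-K20R but not the starting level, so the change over time in CTCF-K20R still varied among the members. It reached at least 8-fold in 47 of the 71 members and was at least as large as in WT in 34. The smallest changes in CTCF-K20R were those of Lrp8 (2.96-fold), Spry4 (3.23-fold) and Asb13 (3.45-fold). In all 3 the day 0 level of both CTCF-K20R libraries lay above both WT libraries. The rule set lower bounds on the WT change and on the day 4 ratio. A change this small in CTCF-K20R was thus possible only from a mean day 0 level above WT, and the higher starts are no separate finding. The CTCF-K20R EB libraries differed from each other by a median of 0.097 on the log2 scale over the members, and most in Cnr1, where they held 149 and 234 normalized counts (a log2 difference of 0.64). Myl9 (488 and 328) and Cacna1g (217 and 302) were the next most uneven, and in these the WT EB level of Myl9 (331 and 333) lay between the CTCF-K20R libraries.

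The bounds of the rule cut through genes of similar values. Irs4 (ratio 0.691), Faxc (0.693) and Nudt11 (0.698) fell just short of the lower bound, and Gbp5 (0.713), Slit3 (0.718) and Nsmf (0.720) lay just inside it. At the upper bound St6gal2 (1.34), Mmp2 (1.34) and Magel2 (1.37) were inside, while Marveld2 (1.45), Wnt8a (1.46) and Aff3 (1.47) were outside. For the WT change, Hivep2 (8.22-fold), Ptpn13 (8.23-fold) and Mmp2 (8.24-fold) were the lowest inside, and Prom1 (7.59-fold), Limd2 (7.94-fold) and Vwa5a (7.99-fold) the highest outside.

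The members were sorted into roles after they had been seen, and they covered growth factor and ERK signalling (10 genes), WNT and planar cell polarity (3), guidance and adhesion receptors (7), epithelium, cytoskeleton and matrix (13), antigen presentation and interferon response (5), transport, metabolism and glycan enzymes (10), neuronal receptors and channels (6), chromatin and gene regulation (8) and other functions (9). Where single genes are described below, libraries of the genotypes that do not overlap are no mark of the members. Over all genes tested on day 0, both CTCF-K20R libraries lay above both WT libraries for 37.6% and below them for 40.3%. The share on day 4 was not computed.

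**Figure D2:**
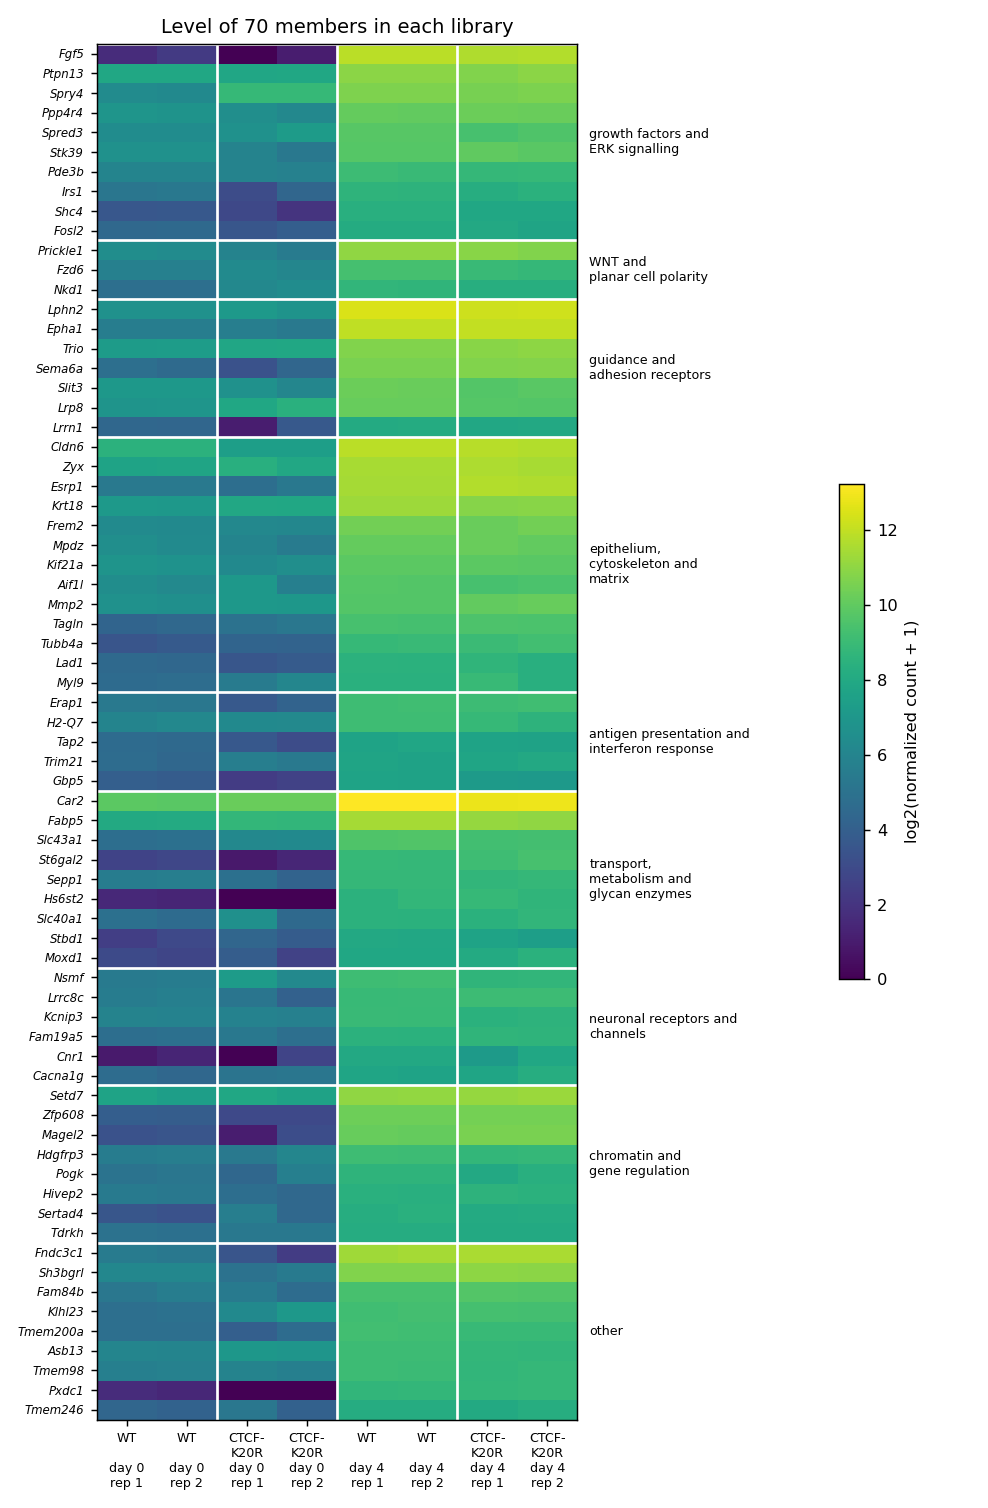
Level of 70 of the 71 members in the 8 libraries as log2(normalized count + 1), with genes in rows grouped by role and libraries in columns by genotype, day and replicate. Every member shown is brighter in the 4 EB libraries than in the mESC libraries of its genotype, and the starting levels in CTCF-K20R mESCs are uneven, with Spry4 above and Fndc3c1 and Zfp608 below WT.

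Compared per kilobase of the longest annotated transcript of each gene, the highest members in WT EBs were Car2 (5379 normalized counts per kb), Cldn6 (2291), Krt18 (1751), Fgf5 (1503) and Epha1 (1234). Whether that transcript is the one expressed was not tested, and a shorter one would move a gene up. The same 5 genes in the same order led in CTCF-K20R EBs, at 4168, 2144, 1307, 1302 and 1262 per kb, with Krt18 and Fgf5 almost level there. RefSeq promoter entries were found for 52 of the 71 members, and those of the 4 highest members with an entry are printed below because these genes had the highest levels per kilobase that were kept. Each sequence holds the 250 bases before the RefSeq start of the gene, read 5′ to 3′ on the strand of the gene in build GRCm38.p6 (mm10). Capitals mark GC boxes (GGGCGG or its reverse complement CCGCCC) and would also mark TATA boxes (TATAAA or its reverse complement), of which these stretches held none. The sequences come from chr17:23679115-23679364 (plus strand) for Cldn6, chr15:102027966-102028215 (plus strand) for Krt18, chr5:98253934-98254183 (plus strand) for Fgf5 and chr6:42373269-42373518 (minus strand) for Epha1.
Cldn6: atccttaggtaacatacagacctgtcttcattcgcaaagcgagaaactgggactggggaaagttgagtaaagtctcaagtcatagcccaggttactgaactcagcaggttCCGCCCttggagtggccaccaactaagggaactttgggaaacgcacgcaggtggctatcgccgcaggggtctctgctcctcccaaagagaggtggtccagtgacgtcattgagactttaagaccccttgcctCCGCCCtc
Krt18: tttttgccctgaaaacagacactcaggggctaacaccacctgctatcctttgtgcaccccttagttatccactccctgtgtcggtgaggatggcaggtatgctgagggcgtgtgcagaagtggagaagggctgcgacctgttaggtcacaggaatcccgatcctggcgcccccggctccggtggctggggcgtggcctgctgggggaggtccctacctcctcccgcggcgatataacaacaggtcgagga
Fgf5: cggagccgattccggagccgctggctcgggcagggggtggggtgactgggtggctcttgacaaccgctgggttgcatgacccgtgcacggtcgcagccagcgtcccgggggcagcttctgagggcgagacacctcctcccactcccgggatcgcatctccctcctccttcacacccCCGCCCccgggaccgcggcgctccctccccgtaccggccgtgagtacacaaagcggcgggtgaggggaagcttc
Epha1: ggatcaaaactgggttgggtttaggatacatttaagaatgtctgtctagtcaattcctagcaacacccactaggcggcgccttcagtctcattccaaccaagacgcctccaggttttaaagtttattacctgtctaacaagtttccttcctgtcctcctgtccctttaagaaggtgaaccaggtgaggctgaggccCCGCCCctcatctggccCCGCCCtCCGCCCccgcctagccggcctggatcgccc

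GC boxes occurred 2 times in the printed stretch of Cldn6, 1 time in that of Fgf5, 3 times in that of Epha1 and 0 times in that of Krt18. Over the whole RefSeq windows, which also hold the 50 bases after the start, a GC box on either strand was found in 42 of the 66 promoters of members (63.6%) and in 57.5% of the 16479 promoters of genes in the table. The core letters AGGNGGC, which lie within the longer CTCF motif and can overlap a GC box, were found in 31 member promoters (47.0%) and in 39.2% of those of all genes in the table. TATAAA stood in 8 member promoters (12.1%, against 7.96% of all genes in the table) and CTTTGA, the core bound by TCF and LEF proteins, in 6 (9.09% against 12.6%). The promoters of the 332 genes below the band held AGGNGGC in 45.7% and CTTTGA in 13.0%. The median ratio of observed to expected CpG dinucleotides was 0.645 in member promoters, 0.646 in promoters of genes below the band and 0.70 over all genes in the table. These matches describe letters, not bound sites.

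Fgf5, a growth factor that marks the epiblast after implantation, had the largest change of all members. It lies at chr5:98254184-98277030 (GRCm38) and held 2.25 and 3.76 normalized counts in WT mESCs against 0 and 1.098 in CTCF-K20R mESCs, and 3765 and 3753 in WT EBs against 3205 and 3309 in CTCF-K20R EBs. Both mESC groups lay at or under the limit of detection by their means, so Fgf5 was at least 1106-fold higher in WT EBs than in WT mESCs and at least 984-fold higher in CTCF-K20R EBs than in CTCF-K20R mESCs. Both CTCF-K20R EB libraries lay below both WT EB libraries, at a ratio of 0.867 of the means.

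Beside Fgf5, this group holds inhibitors and adaptors of receptor tyrosine kinase signalling, phosphatases, a phosphodiesterase, a kinase of ion transport and an AP-1 subunit. Spry4, an inhibitor of receptor tyrosine kinase signalling that is itself switched on by ERK, held 83.7 and 77.4 normalized counts in WT mESCs against 459.7 and 472 in CTCF-K20R mESCs, and 1662 and 1653 in WT EBs against 1455 and 1560.0 in CTCF-K20R EBs. The WT and CTCF-K20R libraries were far apart in mESCs and close in EBs, so that Spry4 changed 20.3-fold in WT and 3.23-fold in CTCF-K20R. Spred3, an inhibitor of the same pathway, held 85.0 and 86.9 normalized counts in WT mESCs against 101 and 150.1 in CTCF-K20R mESCs, and 888 and 885 in WT EBs against 665 and 774 in CTCF-K20R EBs. Its CTCF-K20R libraries lay above WT on day 0 and below WT on day 4, without overlap on either day.

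Shc4 and Irs1, adaptors that dock to activated receptor tyrosine kinases, started lower in CTCF-K20R mESCs. Shc4 held 11.3 and 11.3 normalized counts in WT mESCs against 6.29 and 2.94 in CTCF-K20R mESCs, and 326 and 319 in WT EBs against 239 and 233 in CTCF-K20R EBs, and Irs1 held 36.2 and 37.7 in WT mESCs, 7.57 and 19.8 in CTCF-K20R mESCs, 382 and 371 in WT EBs and 304 and 355 in CTCF-K20R EBs. In both genes the CTCF-K20R libraries were below WT on both days. Fosl2, a subunit of the AP-1 transcription factor, had the same order, with 277 and 283 normalized counts in WT EBs against 253 and 212 in CTCF-K20R EBs. The other members of this group (Ptpn13, a tyrosine phosphatase, Ppp4r4, a phosphatase subunit, Stk39, a kinase of ion transport, and Pde3b, a cAMP phosphodiesterase) had day 4 ratios from 0.866 (Pde3b) to 1.14 (Stk39). Over the 10 genes of the group, 8 lay below a ratio of 1 and 2 above.

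The WNT group comprised Nkd1, a feedback inhibitor that binds Dishevelled, Fzd6, a Frizzled receptor, and Prickle1, a core protein of planar cell polarity. Nkd1 held 27.1 and 27.4 normalized counts in WT mESCs against 70.3 and 85.8 in CTCF-K20R mESCs, and 412 and 404 in WT EBs against 317 and 315 in CTCF-K20R EBs. It was therefore higher in CTCF-K20R than in WT before differentiation and lower after it, with no overlap between genotypes on either day, and it changed 14.5-fold in WT and 4.01-fold in CTCF-K20R. Prickle1 held 89.1 and 82.9 normalized counts in WT mESCs against 59.2 and 44.9 in CTCF-K20R mESCs, and 2122 and 2120.3 in WT EBs against 1869 and 1666 in CTCF-K20R EBs, below WT in CTCF-K20R on both days. All 3 genes had a day 4 ratio below 1, from 0.742 (Fzd6) to 0.833 (Prickle1).

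Several receptors and ligands of cell guidance were among the members. Epha1, an ephrin receptor at chr6:42358487-42373268 (GRCm38, minus strand), held 48.5 and 47.1 normalized counts in WT mESCs against 49.5 and 39.5 in CTCF-K20R mESCs, and 4046 and 4033 in WT EBs against 4107 and 4153 in CTCF-K20R EBs. Its WT level lay within the CTCF-K20R range on day 0, and on day 4 both CTCF-K20R libraries were above WT by a ratio of only 1.02. Sema6a, a transmembrane semaphorin, held 27.1 and 22.9 normalized counts in WT mESCs against 9.14 and 19.9 in CTCF-K20R mESCs, and 1495 and 1519 in WT EBs against 1677 and 1774 in CTCF-K20R EBs, and its CTCF-K20R libraries lay below WT on day 0 and above WT on day 4.

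Lphn2 (Adgrl2 in the current annotation), an adhesion receptor of the latrophilin family, reached 5709 and 5664 in WT EBs and 4743 and 4930.0 in CTCF-K20R EBs from 102 and 101 and 144 and 112 on day 0. It was the member with the second highest count in WT EBs after Car2. Lrp8, a receptor for reelin and apolipoprotein E, held 114 and 119 normalized counts in WT mESCs against 234 and 334 in CTCF-K20R mESCs, and 1142 and 1158 in WT EBs against 856 and 829.8 in CTCF-K20R EBs. The CTCF-K20R libraries started higher and ended lower than WT without overlap. Slit3, a secreted ligand of Robo receptors, held 1215 and 1202 in WT EBs and 812 and 923 in CTCF-K20R EBs, close to the lower bound. Trio, a guanine nucleotide exchange factor, was above WT in CTCF-K20R on both days, with 154 and 156 in WT mESCs, 229.5 and 237 in CTCF-K20R mESCs, 1719 and 1702 in WT EBs and 1886 and 2025 in CTCF-K20R EBs. Lrrn1, a transmembrane protein with leucine-rich repeats, was uneven in CTCF-K20R mESCs (1.08 and 12.1 against 20.4 and 19.8 in WT) and had a day 4 ratio of 0.886.

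The largest group, with 13 genes, held epithelial, cytoskeletal and matrix proteins, and 8 of them had a day 4 ratio above 1. Cldn6, a tight junction claudin of early embryonic epithelium at chr17:23679249-23682446 (GRCm38), held 357 and 359.9 normalized counts in WT mESCs against 169 and 168 in CTCF-K20R mESCs, and 3699.7 and 3731 in WT EBs against 3565 and 3389.6 in CTCF-K20R EBs. The CTCF-K20R libraries started at 0.471 times the WT level and came close to it on day 4, where they still lay below both WT libraries. Esrp1, an epithelial regulator of splicing, held 40.3 and 39.9 normalized counts in WT mESCs against 26.9 and 38.7 in CTCF-K20R mESCs, and 2797 and 2769 in WT EBs against 3350.0 and 3269 in CTCF-K20R EBs, and changed 67.7-fold in WT and 98.1-fold in CTCF-K20R. Its CTCF-K20R EB libraries were both above WT.

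Krt18, a keratin of simple epithelia at chr15:102028180-102032027 (GRCm38), held 138 and 130.2 normalized counts in WT mESCs against 239 and 238 in CTCF-K20R mESCs, and 2496 and 2535 in WT EBs against 1839 and 1917 in CTCF-K20R EBs. It lay above WT in CTCF-K20R mESCs and below WT in CTCF-K20R EBs, near the lower bound of the rule (ratio 0.747). Its filament partner Krt8 was not a member, since its mean was 7509 normalized counts in WT EBs and 1030 in CTCF-K20R EBs (ratio 0.137). The keratin pair thus differed in how far CTCF-K20R EBs reached the WT level.

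Among the cytoskeletal members, Tagln and Myl9 are best known from smooth muscle, where they bind actin and form part of myosin. Tagln held 18.1 and 20.8 normalized counts in WT mESCs against 31.2 and 36.3 in CTCF-K20R mESCs, and 656 and 654 in WT EBs against 753 and 717 in CTCF-K20R EBs. CTCF-K20R lay above WT on both days. Myl9 held 23.5 and 25.6 normalized counts in WT mESCs against 44.5 and 65.2 in CTCF-K20R mESCs, and 331 and 333 in WT EBs against 488 and 328 in CTCF-K20R EBs, with no overlap on day 0 and overlap on day 4. Zyx, a focal adhesion protein, and Tubb4a, a beta-tubulin, had day 4 ratios of 1.02 and 1.15. Mmp2, a protease that cleaves collagen of the matrix, held 104 and 97.0 normalized counts in WT mESCs against 130.4 and 125 in CTCF-K20R mESCs, and 838 and 830.5 in WT EBs against 1079 and 1154 in CTCF-K20R EBs and was above WT in CTCF-K20R on both days. The other members of the group were Frem2, a basement membrane protein, Mpdz, a scaffold of tight junctions, Kif21a, a kinesin, Lad1, of basement membrane anchoring, and Aif1l, an actin-binding protein, with ratios from 0.822 (Aif1l) to 1.03 (Lad1).

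A set of 5 members belongs to antigen presentation by MHC class I or to the interferon response. Erap1, which trims peptides for MHC class I in the endoplasmic reticulum, held 39.6 and 36.9 normalized counts in WT mESCs against 11.9 and 17.6 in CTCF-K20R mESCs, and 548 and 569 in WT EBs against 539 and 581 in CTCF-K20R EBs. CTCF-K20R mESCs lay well below WT, and the EB libraries of the genotypes overlapped. Tap2, a subunit of the transporter that brings peptides into that compartment, followed a like course, with 24.0 and 22.1 normalized counts in WT mESCs against 11.5 and 7.36 in CTCF-K20R mESCs, and 202 and 225 in WT EBs against 202 and 193 in CTCF-K20R EBs. Its partner Tap1 changed 3.71-fold in WT, short of the rule, and 13.4-fold in CTCF-K20R, to a mean of 210 normalized counts in WT EBs and 427 in CTCF-K20R EBs.

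Gbp5, an interferon-induced GTPase, was the member nearest the lower bound, with 15.0 and 13.4 normalized counts in WT mESCs against 4.08 and 5.21 in CTCF-K20R mESCs, and 203 and 199 in WT EBs against 146 and 139.8 in CTCF-K20R EBs. The table lists it under this symbol, while GENCODE vM21 names the same identifier (ENSMUSG00000040264) Gbp2b. H2-Q7, a class I heavy chain, held 566 and 550.3 in WT EBs and 459 and 378 in CTCF-K20R EBs, and since the H2-Q genes are near-identical copies that can share reads, its values are uncertain. Trim21, a cytosolic antibody receptor, held 210.0 and 199 and 222 and 255. Of the other class I and interferon genes looked up after these values had been seen, B2m, the light chain, had means of 203 in WT mESCs and 670 in WT EBs and a day 4 ratio of 1.17, and Bst2, an interferon-induced membrane protein, had a ratio of 4.95. Irf1, a transcription factor of this response, changed 2.00-fold in WT and 6.45-fold in CTCF-K20R and had a ratio of 1.54. Others lay below WT on day 4, such as the WT-induced H2-T23 (ratio 0.235) and Gbp2 (0.611). Psme2 (0.513), Irf9 (0.364) and Oas1a (0.471), which were not WT-induced, were also below. Tapbp (0.908) and H2-T22 (0.990) were close to WT, so the genes looked up did not share 1 direction.

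Transport and metabolism gave 10 members. Car2, a carbonic anhydrase, had the highest count of all members, with 957 and 932 normalized counts in WT mESCs against 1174 and 1190.4 in CTCF-K20R mESCs, and 9627 and 9609.7 in WT EBs against 7349 and 7556 in CTCF-K20R EBs. CTCF-K20R was above WT on day 0 and below it on day 4, without overlap on either day. Fabp5, a fatty acid binding protein, had the same order with 262 and 270.3 normalized counts in WT mESCs against 428 and 411 in CTCF-K20R mESCs, and 2843 and 2816 in WT EBs against 2270.1 and 2123 in CTCF-K20R EBs. Slc43a1, a transporter of neutral amino acids, held 26.0 and 28.4 normalized counts in WT mESCs against 72.2 and 77.5 in CTCF-K20R mESCs, and 783 and 805 in WT EBs against 597 and 615 in CTCF-K20R EBs and also crossed from above WT to below it.

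Hs6st2, which adds sulfate to heparan chains, was under the limit of detection in all mESC libraries and reached 364 and 432 in WT EBs against 460.0 and 401 in CTCF-K20R EBs. For Hs6st2 the genotypes overlapped on day 4. St6gal2, a sialyltransferase, held 5.32 and 5.92 normalized counts in WT mESCs against 0.846 and 1.72 in CTCF-K20R mESCs, and 461 and 456 in WT EBs against 554 and 673 in CTCF-K20R EBs, so that only its CTCF-K20R mESC mean was under the limit and the change in CTCF-K20R was at least 185-fold. Further members were Sepp1, the selenium carrier of plasma (now Selenop), Slc40a1, the iron exporter, Stbd1, a glycogen-binding protein, and Moxd1, with day 4 ratios of 0.961, 1.07, 0.752 and 1.31.

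Genes better known from neurons included Cnr1, the brain cannabinoid receptor, which was under the limit of detection in mESCs by its means and reached 254 and 254 in WT EBs. Cacna1g, a T-type calcium channel, Kcnip3, a calcium sensor of potassium channels, and Nsmf, a synaptic messenger protein, had day 4 ratios of 1.22, 0.730 and 0.720. Lrrc8c, a subunit of volume-regulated anion channels, and Fam19a5, a secreted protein of the brain, had ratios of 1.08 and 1.12. Of the 6 genes, 3 were below and 3 above a ratio of 1.

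Gene regulation was represented by 8 members. Magel2, an imprinted gene expressed from the paternal copy, held 9.02 and 10.4 normalized counts in WT mESCs against 1.09 and 7.73 in CTCF-K20R mESCs, and 1124 and 1119 in WT EBs against 1538 and 1545 in CTCF-K20R EBs, and with a ratio of 1.37 it was the member nearest the upper bound. Zfp608, a zinc finger gene, held 14.6 and 14.1 normalized counts in WT mESCs against 6.46 and 6.57 in CTCF-K20R mESCs, and 1272 and 1267 in WT EBs against 1404 and 1418 in CTCF-K20R EBs, and CTCF-K20R lay below WT on day 0 and above WT on day 4. Setd7, a lysine methyltransferase, held 200.4 and 168 normalized counts in WT mESCs against 234 and 199.7 in CTCF-K20R mESCs, and 2108 and 2161 in WT EBs against 2254 and 2408 in CTCF-K20R EBs, with overlap on day 0 and CTCF-K20R above WT on day 4. Pogk, Hivep2, Sertad4, Tdrkh (a Tudor protein of the piRNA pathway) and Hdgfrp3 had ratios from 0.738 (Pogk) to 1.07 (Hivep2).

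Among the remaining 9 members, Fndc3c1, an X-linked gene of the fibronectin type III family, held 45.0 and 37.8 normalized counts in WT mESCs against 10.4 and 4.07 in CTCF-K20R mESCs, and 2639.5 and 2768 in WT EBs against 2991 and 2959 in CTCF-K20R EBs. It had the lowest CTCF-K20R start relative to WT and ended above WT, with a change of 63.8-fold in WT and 362-fold in CTCF-K20R. Klhl23, a kelch protein, held 27.6 and 29.7 normalized counts in WT mESCs against 77.5 and 134 in CTCF-K20R mESCs, and 575 and 618 in WT EBs against 637 and 610.0 in CTCF-K20R EBs, with overlap on day 4. Pxdc1 was under the limit of detection in all 4 mESC libraries and reached 422 and 429 in WT EBs and 433 and 451 in CTCF-K20R EBs, at least 125-fold and 134-fold above the limit. Asb13, Sh3bgrl, Fam84b, Tmem200a, Tmem98 and Tmem246 had ratios from 0.791 (Asb13) to 1.21 (Fam84b).

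**Figure D3:**
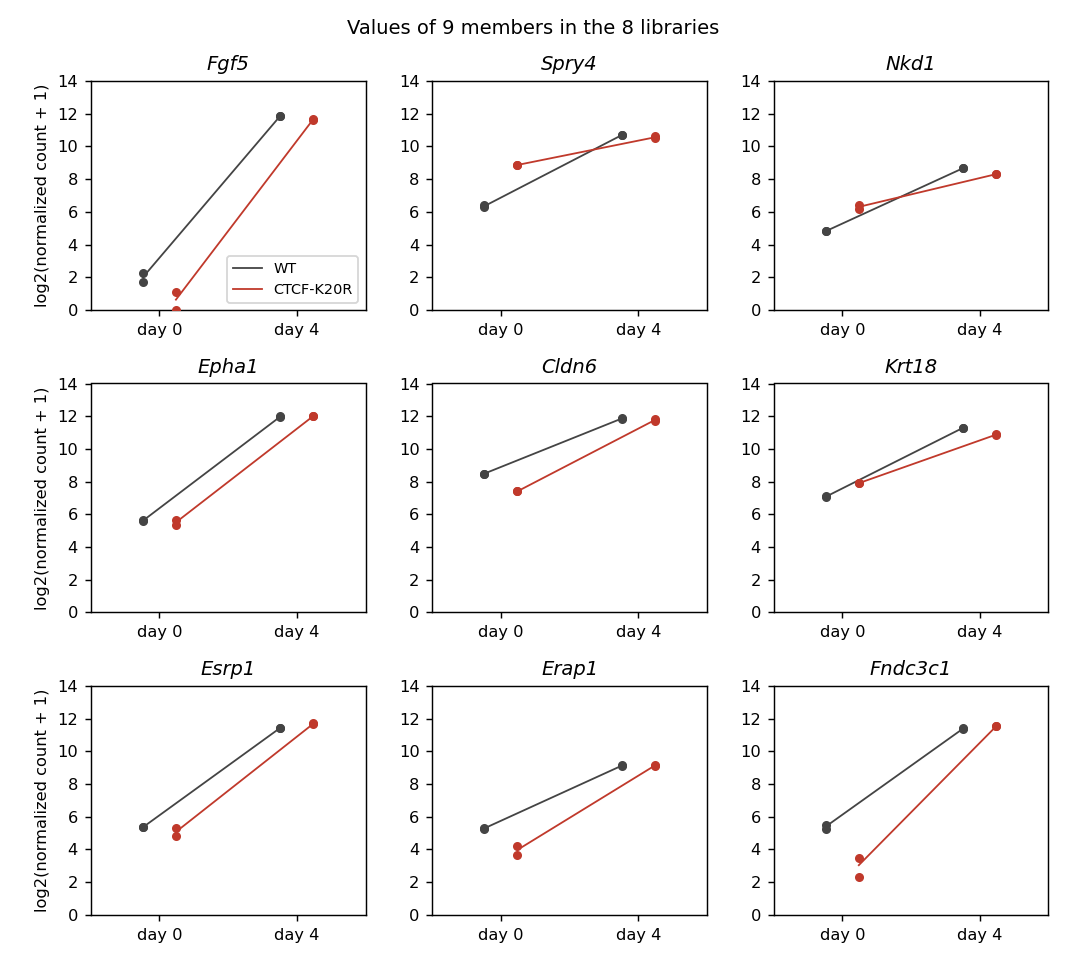
Values of 9 members as log2(normalized count + 1) on day 0 and day 4, with a point for each library, lines between group means, WT in grey and CTCF-K20R in red. Spry4 and Nkd1 start above WT and end slightly below it, Cldn6, Erap1 and Fndc3c1 start below WT, and all 9 end within the band of 0.7 to 1.4 times WT that the rule set.

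Lists of genes for lineages and pathways were set beside the members to show which neighbours in function were not kept. Over all 428 WT-induced genes, 71 were members, 332 had a ratio under 0.7 and 25 a ratio above 1.4. Most genes of a list are thus below the band at this overall share. Of the 19 WT-induced genes of the primitive streak and mesoderm list, 0 were members and 19 had a ratio under 0.7, such as T, whose mean was 20800 normalized counts in WT EBs and 517 in CTCF-K20R EBs. Of the 10 WT-induced WNT targets Nkd1 was a member, and the other 9 were below the band. Of the 6 WT-induced genes of the ERK response list, Spry4 and Fosl2 were members, whereas Dusp4, Dusp5, Dusp6 and Etv4 were below. Dusp6, an ERK phosphatase, had a mean of 6877 in WT EBs and 2410 in CTCF-K20R EBs. The rule used these levels, and the counts are a description.

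The post-implantation epiblast list had 8 WT-induced genes, of which Fgf5 and Cldn6 were members, 4 (Lef1, Sox4, Fgf15 and Cdh2) were below and 2 (Wnt8a and Pim2) above. Otx2, a transcription factor of the same stage, changed only 4.31-fold in WT and was no member, but had a ratio of 0.922. Epithelial junction and keratin genes had 7 WT-induced genes, with Krt18, Cldn6 and Esrp1 as members, Krt8 and Perp below and Cldn7 and Marveld2 above. Of 8 WT-induced axon guidance and adhesion genes, Epha1 and Sema6a were members and 6 were below. Tagln and Myl9 were 2 of 4 WT-induced cytoskeletal genes, with Actc1 below and Cnn1 above. Of 7 imprinted genes Magel2 was a member, and its neighbour in the same imprinted cluster, Ndn, was below. Mmp2 was 1 of 2 matrix genes, Krt18 1 of 4 in the trophoblast list, Cldn6 1 of 7 in the definitive endoderm list, and Fgf5 1 of 16 among secreted signals and antagonists. The lists for Hox and Cdx genes, extraembryonic endoderm and neural ectoderm (3 WT-induced genes each), blood and endothelium and fibroblasts (2 each) and the p53 and stress response (1) held 0 members, with all their WT-induced genes below the band. The lists for naive pluripotency, the let-7 and LIN28 axis, DNA methylation and germ cells held 0 WT-induced genes. Most lists hold few WT-induced genes, and none was tested against the overall share of 332 of 428 below the band.

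**Figure D4:**
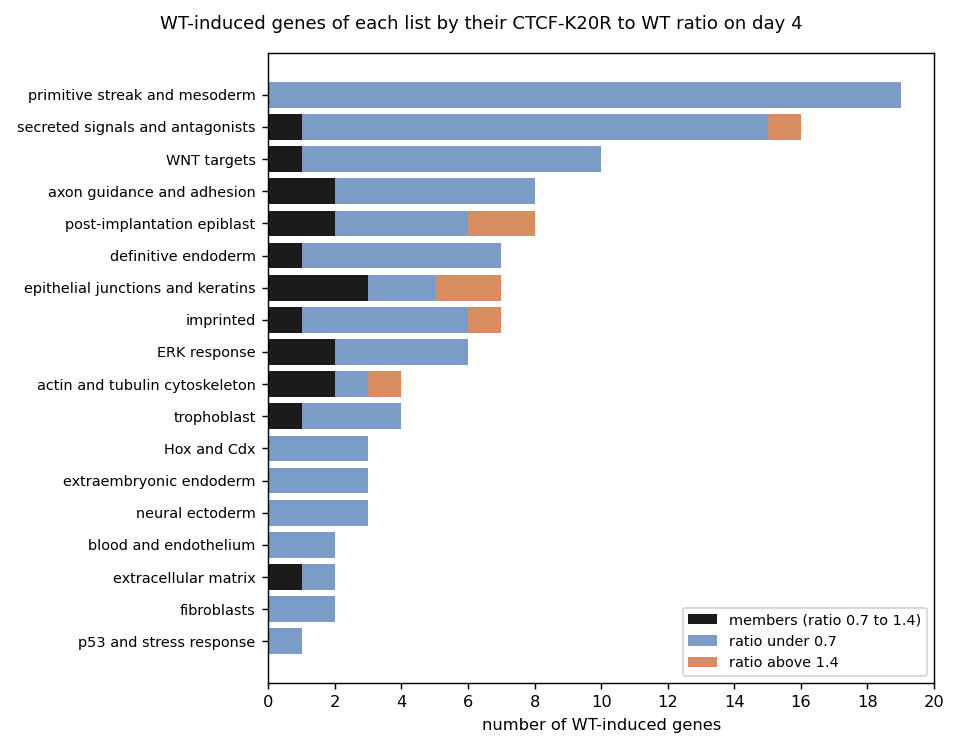
Number of WT-induced genes in each list, as bars split into members (black), genes with a day 4 ratio under 0.7 (blue) and genes with a ratio above 1.4 (orange). The streak and mesoderm list has 0 members among 19 genes, and the epithelial junction and keratin list has 3 among 7. Over all 428 WT-induced genes, 71 are members and 332 have a ratio under 0.7.

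The day 0 libraries show whether the members already differed between genotypes before differentiation. Here the WT mESC mean took part in the choice of members through the WT change, while the CTCF-K20R mESC libraries did not. Each gene was tested with limma on log2(normalized count + 1), across 15767 genes whose mean over the 8 libraries reached 10, and was called at an absolute log2 fold change above 1 and a Benjamini-Hochberg adjusted p under 0.05. All 71 members passed the filter. Of these 12 were called (16.9%), against a background of 3.79% of all genes tested. Higher in CTCF-K20R mESCs were 5 members (7.04%, background 1.19%) and lower were 7 (9.86%, background 2.6%). Of the 332 WT-induced genes below the band, 43 were called on day 0 (13.0%), and of the 25 above it 3 (12%), so the share called was also over the background in the WT-induced genes that were not kept. With quantile normalization the members split into 8 higher and 2 lower, in place of 5 and 7.

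The 5 members called higher were Spry4 (log2 fold change 2.52 ± 0.09 (SE), adjusted p = 0.000743), Klhl23 (log2 fold change 1.79 ± 0.32 (SE), adjusted p = 0.022), Nkd1 (log2 fold change 1.48 ± 0.21 (SE), adjusted p = 0.0119), Slc43a1 (log2 fold change 1.43 ± 0.16 (SE), adjusted p = 0.00593) and Lrp8 (log2 fold change 1.26 ± 0.21 (SE), adjusted p = 0.0186) by limma with Benjamini-Hochberg adjustment. Spry4 was 5.72-fold higher. It restrains ERK signalling and Nkd1 restrains WNT signalling, while Slc43a1, Lrp8 and Klhl23 have other roles. From the ERK response list of 24 genes, Spry4 and Etv4 were called higher on day 0 and Fos lower. From the WNT target list of 18 genes, Nkd1 and Cdx1 were called higher and Lef1, T and Ccnd2 lower. The median of the ERK list was -0.01 and that of the WNT list 0.11 on the log2 scale, with -0.01 over all genes tested.

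The 7 members called lower by limma with the same adjustment were Fndc3c1 (log2 fold change -2.48 ± 0.46 (SE), adjusted p = 0.0232), Pxdc1 (adjusted p = 0.0418), St6gal2 (adjusted p = 0.0499), Gbp5 (log2 fold change -1.44 ± 0.34 (SE), adjusted p = 0.0458), Erap1 (log2 fold change -1.34 ± 0.29 (SE), adjusted p = 0.0347), Cldn6 (log2 fold change -1.09 ± 0.08 (SE), adjusted p = 0.00166) and Zfp608 (log2 fold change -1.03 ± 0.20 (SE), adjusted p = 0.0273). Pxdc1 was under the limit of detection in both groups, so that no fold can be given, and St6gal2 was under it in CTCF-K20R. Cldn6 and 5 further genes of the 23 in the post-implantation epiblast list (Lef1, Sox3, Sall2, Grhl2 and Trh) were called lower on day 0 and Wnt8a higher, with a list median of -0.58. Of the 23 epithelial junction and keratin genes, Krt19, Cldn6, Epcam and Grhl2 were called lower and Marveld2 higher, with a median of -0.16.

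The remaining 59 members were not called. At an adjusted p under 0.05 of any size there were 18 members (25.4%, background 15.4%), the 12 called among them. By limma, Krt18 (log2 fold change 0.83 ± 0.09 (SE), adjusted p = 0.00484), Fabp5 (log2 fold change 0.65 ± 0.08 (SE), adjusted p = 0.00756), Car2 (log2 fold change 0.32 ± 0.05 (SE), adjusted p = 0.0123), Trio (log2 fold change 0.59 ± 0.09 (SE), adjusted p = 0.0159) and Asb13 (log2 fold change 0.94 ± 0.15 (SE), adjusted p = 0.017) were higher in CTCF-K20R mESCs by less than 1 on the log2 scale. Sh3bgrl (log2 fold change -0.93 ± 0.18 (SE), adjusted p = 0.0285 by limma) was lower by less than 1. Epha1 (log2 fold change -0.11 ± 0.16 (SE), adjusted p = 0.678), Esrp1 (log2 fold change -0.31 ± 0.22 (SE), adjusted p = 0.401) and Mmp2 (log2 fold change 0.35 ± 0.12 (SE), adjusted p = 0.12) did not pass in the same limma test. Magel2 (log2 fold change -1.33 ± 0.79 (SE), adjusted p = 0.317) missed it at low counts, and Fgf5 was under the limit of detection in both groups by its means, so that no fold can be given (adjusted p = 0.091 by limma). Both CTCF-K20R libraries lay above both WT libraries for 25 members (35.2%, background 37.6%) and below for 31 (43.7%, background 40.3%), and 15 overlapped. The median log2 fold change of the members was -0.04, close to that of all genes tested (-0.01), and -0.02 without the 5 members under the limit of detection in both groups, with 33 members above 0 and 38 below.

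**Figure D5:**
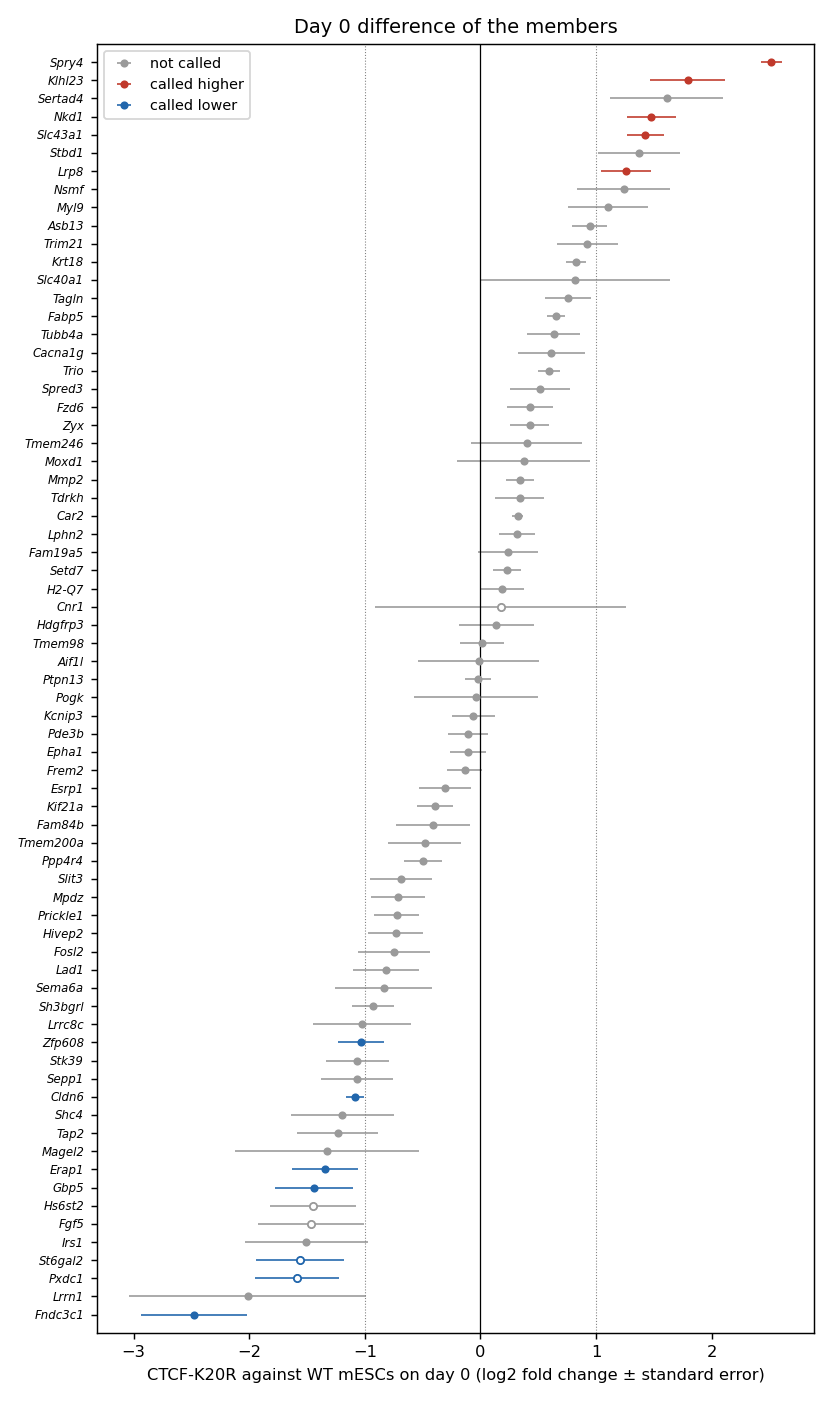
Log2 fold change of CTCF-K20R against WT mESCs on day 0 for 70 of the 71 members, with its standard error from limma, in order of size. The dotted lines mark a log2 fold change of 1 in either direction, the 5 members called higher are red, the 7 called lower are blue, and the other 58 shown are grey. Open circles mark the 5 members shown with a group under the limit of detection, whose plotted fold depends on the pseudocount.

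These calls rest on 2 residual degrees of freedom, and leaving out either CTCF-K20R EB library, replicate 1 or replicate 2, which serves only to estimate the spread, left 0 members called by limma (14 past the fold threshold at an unadjusted p under 0.05 in each case, and 23 with all libraries). Without CTCF-K20R mESC replicate 1, the members called lower fell from 7 to 4.

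The members lay on 17 of the chromosomes, with up to 8 on chromosomes 2 and 15 each. Only Zyx (chr6:42349630-42360213, plus strand) and Epha1 were neighbours, and they overlap by 1727 bases on opposite strands. Whether the counting used strand is not given in the sources used here, so reads in the overlap cannot be told apart. Overlaps with another protein-coding gene on the opposite strand that had over 100 normalized counts in WT EBs also concern Erap1 (Cast), Tagln (Pcsk7), Pogk (Tada1), Shc4 (Eid1) and Hdgfrp3 (Tm6sf1). Nkd1 and Mmp2 on chromosome 8 and Kcnip3 on chromosome 2 lay in stretches where the median day 0 log2 fold change of the 40 nearest tested genes was 0.54, 0.50 and 0.64. For Nkd1 this shift of the neighbourhood stands beside its own day 0 log2 fold change of 1.48. On day 4 the neighbours of Nkd1, Mmp2 and Kcnip3 had medians of 0.39, 0.46 and 0.67, and those of Shc4 on chromosome 2 had 0.48. The day 4 log2 ratios of the members themselves were -0.37 for Nkd1, 0.42 for Mmp2, -0.455 for Kcnip3 and -0.45 for Shc4. The part of these shifts in the values of the members, on either day, was not tested.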

How the data were processed

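RNA-seq of WT and CTCF-K20R mESCs and day 4 EBs (2 libraries per group, 8 in all) was re-analysed. As deposited, each gene has a signal in every library, its normalized count: the authors used Trim Galore on the reads, estimated transcript abundance against mm10 with Salmon, added transcripts up by gene and scaled all libraries jointly with DESeq2. The scaling also depends on the gene, which hides the whole reads, and a test for normalized values was chosen in place of a count model. The annotation release and the use of strand are not given in the sources used here.

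Members were found from group means by the stated rule. For tests, log2(value + 1) of genes averaging 10 or more was fitted by limma 3.58.1 under R 4.3.3 (lmFit, eBayes with trend), with 1 coefficient per group, and p-values were adjusted by Benjamini-Hochberg over all 15767 genes. Because the spread within each WT pair was below sampling noise, its mean entered as 1 sample, which gave 6 samples in all. The libraries are called biological replicates by the study, but nothing in the labels ties them to separate cultures, so p-values measure the spread between these samples. Folds against a group under 3 reads were computed against the higher limit of that group's libraries. Positions came from GENCODE vM21 and promoters from RefSeq (GRCm38.p6). Python 3.11.15 was used for tables and plots.

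The members, gene lists, roles and tests were chosen with earlier results of these data known. Genes were named where they ranked in the top 10 by WT EB level or WT change, were called on day 0, stood in a list, lay next to a bound or differed most between CTCF-K20R EB libraries, and others were named by role after their values were seen. Another pseudocount, filter, scaling, set of samples or bound and leaving out each library were tried. The values of 1 member are not reported here.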

Additional observations from a re-analysis of the deposited data

Results flagged for a closer look

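In 7 of the 12 members called on day 0, not counting Pxdc1, the genotype difference pointed the other way on day 4. In these 7, both CTCF-K20R EB libraries lay on the opposite side of both WT EB libraries. The day 4 values took part in the choice of members, the difference between the days was not tested, and the WT libraries of each day count as 1 sample. The rule held the day 4 ratio near 1, and over all 71 members it lay below 1 for 40 and above 1 for 31. Members that were not called on day 0 also reversed in this way, such as Krt18, Fabp5 and Car2 from above WT to below it. Sema6a went from below WT to above it. The share of such reversals among the other members and among all genes was not computed. The count thus stands without a background and does not set the called members apart. The log2 difference between CTCF-K20R and WT went from 2.52 on day 0 to -0.14 on day 4 for Spry4, from 1.48 to -0.37 for Nkd1, from 1.43 to -0.39 for Slc43a1 and from 1.26 to -0.45 for Lrp8. It went from -1.03 to 0.15 for Zfp608 and from -2.48 to 0.14 for Fndc3c1. For St6gal2, whose CTCF-K20R mESC mean was under the limit of detection, the day 0 difference computed against that limit was -0.76 or further below 0, and the day 4 difference was 0.42. Pxdc1 was under the limit in both groups on day 0, has no fold there and was left out of the 7. Its CTCF-K20R libraries also lay below WT on day 0 and above WT on day 4.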

How the results depend on the processing

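The number of members was 71 and became 149 and 27 with a WT change of at least 4-fold and 16-fold, 43 with a WT EB mean of at least 500 and 131 with a ratio from 0.5 to 2, and it was 70 to 73 when 1 library was left out. The sets differed more than these counts. When 1 library was left out, 65 to 71 of the 71 members remained, fewest without CTCF-K20R EB replicate 1. Quantile normalization gave 64 members, 57 of them among the 71, and a pseudocount of 10 gave 60, with 59 among the 71. The 5 members called higher and 7 called lower on day 0 became 9 and 15 with all 8 libraries as separate samples, and were again 9 and 15 when a replicate block was added to that fit of 8 libraries. The replicate numbers did not pair the samples (correlations of deviations from -0.031 to 0.030). They became 3 and 2 without a filter, 8 and 2 with quantile normalization, and 1 and 0 with day 0 libraries alone (14 past the fold threshold at an unadjusted p under 0.05 by limma). There were 4 lower with a pseudocount of 5 and 10 higher by adjusted p alone. Leaving out 1 library gave 0 to 7 higher and 0 to 9 lower, with 0 in both directions without CTCF-K20R EB replicate 1 or replicate 2. Over all genes, 188 higher and 410 lower became 445 and 903 with 8 libraries, 445 and 899 with the block added to it, 54 and 92 with day 0 libraries alone and 1235 and 1194 by adjusted p alone, and ranged from 0 to 200 and from 0 to 415 when 1 library was left out. CTCF-K20R mESC replicates 1 and 2 also moved them, to 87 and 222 and to 95 and 230. At 0 calls by limma, 1072 genes without CTCF-K20R EB replicate 1 and 1074 without replicate 2 passed the fold threshold at an unadjusted p under 0.05. The median of the members, -0.04, became 0.0555 with quantile normalization and ranged from -0.161 to -0.0381 without 1 library. Epha1, at -0.11, reversed to 0.0124 with quantile normalization and ranged from -0.269 to 0.050 without 1 library (CTCF-K20R mESC replicate 2). Fewer samples leave fewer residual degrees of freedom, and the cause of the other moves was not tested. Of 374 values of 22 named members under 17 alternatives, 300 kept their direction and call, 64 lost the call, 8 gained one and 2 reversed. Spry4 kept its call in 9 of 9 other settings and in 6 of 8 when 1 library was left out. Over the same 9 settings St6gal2 kept its call in 4, Gbp5 and Pxdc1 in 5 each, Zfp608 in 6, and the remaining called members in 7 or 8. Only 1 WT sample per day and 2 residual degrees of freedom limit every p-value, and members under 3 reads on day 0 have no measured start.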
